A study of Mus musculus with 12 samples.

Results

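The comparison set CD8 T cells against γδ T cells of mouse Peyer's patches, which are lymphoid organs of the small bowel, over the 6 arrays that carry these labels among the 12 arrays of the series. The CD8 fraction was sorted as γδTCR-, TCRβ+, CD4- and CD8β+, and the γδ fraction as γδTCR+ and TCRβ-, with no gate on CD4, CD8α or CD8β in the γδ fraction. The other fractions, used only where they place a value, were DN (γδTCR-, TCRβ+, CD4-, CD8β-) and CD4 (γδTCR-, TCRβ+, CD4+), again with 3 arrays each. All cells came from C57BL/6 mice of 10 weeks, male and female, pooled from 3 to 5 animals, with no treatment or mutation named, and the submitters state a purity above 98% after sorting. RNA collection was repeated 3 times, but the labels do not say whether the animals differed between rounds. The p-values therefore reflect only how these samples scatter, which may be technical.

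Conventional CD8 T cells carry an αβ T cell receptor and a CD8αβ coreceptor that holds the receptor to peptide on MHC class I molecules. Many of them circulate as naive or memory cells between blood and lymphoid tissue. γδ T cells carry a receptor of γ and δ chains that does not need classical MHC molecules, and in the intestine many of them bear CD8αα, natural killer type receptors and a ready store of granzymes and chemokines.

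Each array was read as the fluorescence of a Cy5 dye, and values here are log2 signals after background correction and quantile normalisation. On the CD8 and γδ arrays the median spot lay at 70.7 to 76.9 intensity units, and blank spots averaged 59.9 to 62.0. Between 18930 and 20758 of 23473 probes rose above background on an array. Of all probes, 19281 were detected on all 3 arrays of CD8 or of γδ, and with 1 probe for each gene symbol 16089 genes were tested. By the array names, replicate 1 of every fraction belongs to one series of arrays and replicates 2 and 3 to another. Array number limits the precision.

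The gene of the sort marker went against the labels in replicate 1. Cd8b1, which encodes the CD8β chain, gave log2 signals of 8.57, 13.80 and 13.62 in the libraries labelled CD8 1, 2 and 3, against 13.91, 8.29 and 8.14 in those labelled γδ 1, 2 and 3. In replicates 2 and 3 the CD8 libraries were thus the high ones, and in replicate 1 the library labelled γδ 1 was. The DN libraries had 6.26 to 6.29 and the CD4 libraries 7.80 to 8.26. Cd8b1 was the reason to look at replicates 2 and 3 by themselves, so its values are a description.

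The other readable coreceptor genes did not divide the fractions. Cd8a, which encodes the CD8α chain found in both CD8αβ and CD8αα, had 14.70, 13.85 and 13.49 in the CD8 libraries, against 13.80, 13.83 and 13.49 in the γδ libraries. All 6 were high, and the ranges overlapped. Cd4 stayed at 6.03 to 6.15 in the CD8 libraries and at 6.00 to 6.12 in the γδ libraries, near the dim end of the scale. Since the chip's annotation gives no symbol to any receptor chain gene, the γδ receptor itself was not analysed here.

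**Figure D1:**
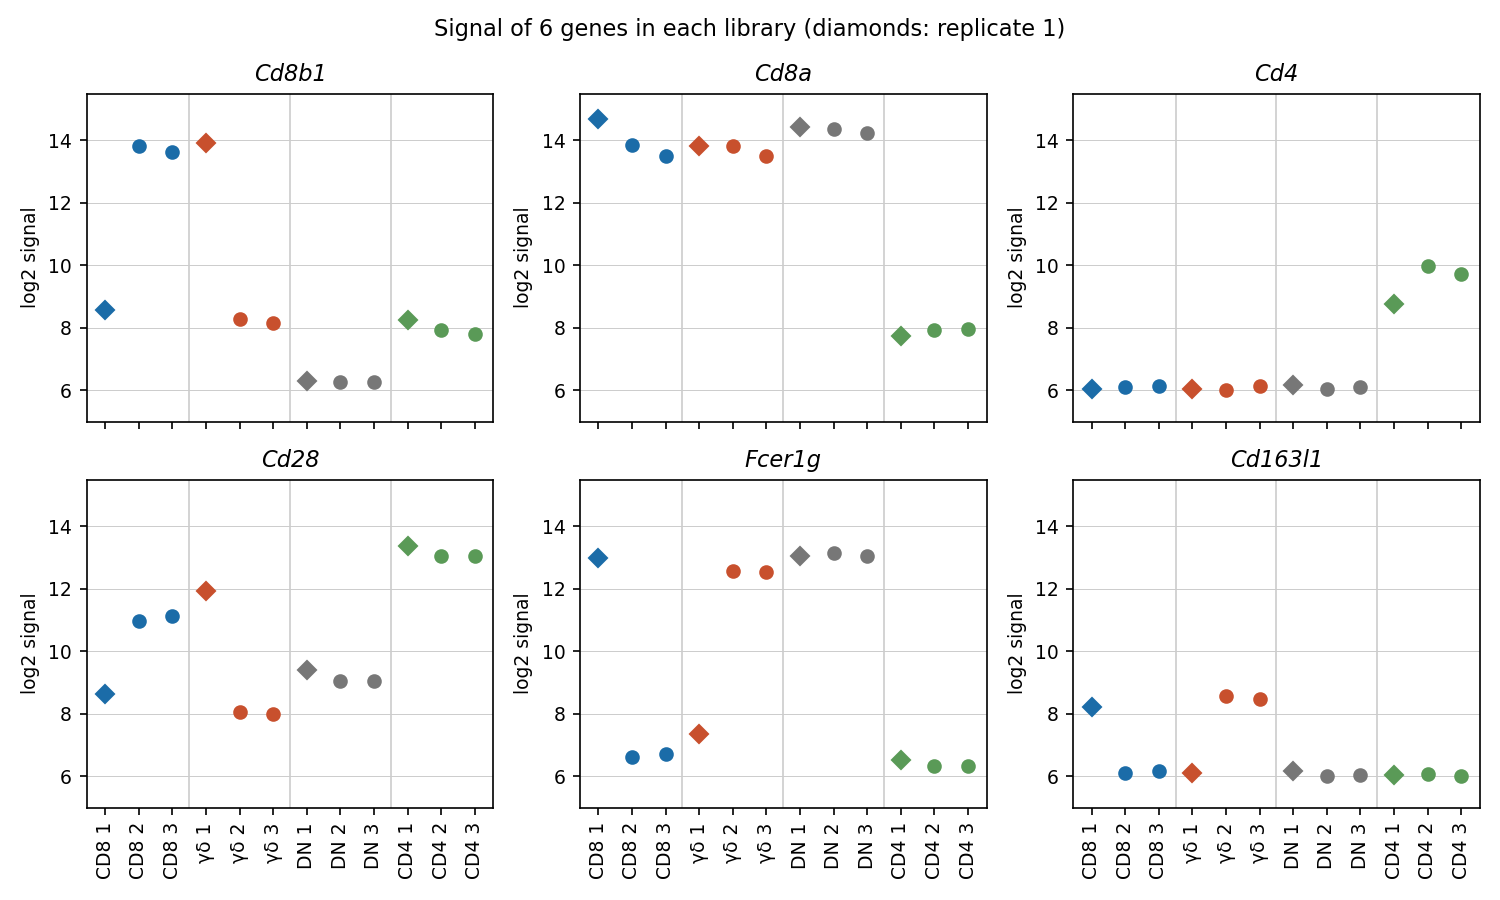
Log2 signal of Cd8b1, Cd8a, Cd4, Cd28, Fcer1g and Cd163l1 in each of the 12 libraries, in the order CD8, γδ, DN and CD4, with diamonds for replicate 1 and circles for replicates 2 and 3. In Cd8b1 the library labelled CD8 1 (8.57) lies beside γδ 2 and 3 (8.29 and 8.14), and the library labelled γδ 1 (13.91) beside CD8 2 and 3 (13.80 and 13.62).

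As labelled, with all 3 replicates, 0 of 16089 genes differed between CD8 and γδ (0%) by limma's moderated test on all 12 arrays with Benjamini-Hochberg adjustment. The lowest adjusted p was 0.957, and 308 genes (1.91%) had an unadjusted p under 0.05. All 3 CD8 values lay above all 3 γδ values in 380 genes (2.36%) and below them in 309 (1.92%). For Cd8b1 the log2 difference was 1.89 ± 1.69 (SE, n = 3 libraries of each fraction). Without the library labelled CD8 1 there were 16 genes with an adjusted p under 0.05, without γδ 1 there were 8, and without any other single library 0.

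With replicates 2 and 3 alone, 4583 of 16089 genes differed (28.5%) by limma's moderated test on the 8 arrays of these replicates, with 4 residual degrees of freedom. Of these, 2419 (15%) were higher and 2164 (13.5%) lower in CD8. A log2 difference of at least 1 in size, a change of 2-fold, was reached by 376 of them (2.34%), 116 higher (0.721%) and 260 lower (1.62%) in CD8. Most called differences were small, with a median size of 0.32, and the median over all genes was 0.02. With the arrays DN 1 and CD4 1 added to the fit, the spread between the array series entered the error. In that fit 1221 genes were called (7.59%), 604 higher (3.75%) and 617 lower (3.83%) in CD8. Calls lost in it are given beside the genes below. With the array series as a block as well, 3322 genes were called. Among 358 genes of the gene groups and named genes, 106 lost their call without this block and 33 with it. Replicates 2 and 3 of CD8 correlated at 0.997 across genes, as did those of γδ. The median standard error over these 376 genes was 0.06 in replicates 2 and 3 and 0.52 with all 3 replicates.

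Genes higher in CD8 cells in replicates 2 and 3 included receptors and transcription factors of circulating αβ T cells. Cd28, the costimulatory receptor for B7 ligands, stood at 10.98 and 11.12 in CD8 2 and 3, against 8.06 and 7.99 in γδ 2 and 3, and 8.63 and 11.95 in libraries labelled CD8 1 and γδ 1. The groups did not overlap in replicates 2 and 3, and replicate 1 ran the other way. The difference in replicates 2 and 3 was 3.03 ± 0.05 (SE, limma adjusted p = 8.9e-07). Lef1, a transcription factor of the Wnt pathway that marks naive T cells, had 8.97 and 9.16 in CD8 2 and 3, against 6.54 and 6.44 in γδ 2 and 3 (2.58 ± 0.07, adjusted p = 6.18e-06). Cd5, which dampens signals of the antigen receptor, had 8.40 and 8.50 in CD8 2 and 3, against 6.31 and 6.29 in γδ 2 and 3 (2.15 ± 0.10, adjusted p = 3.74e-05).

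The gene with the next highest difference after Cd8b1 was Rgcc, a regulator of the cell cycle. It had 9.60 and 9.50 in CD8 2 and 3, against 6.52 and 6.38 in γδ 2 and 3 (3.10 ± 0.06, adjusted p = 1.6e-06). Tmie, a membrane protein known from hair cells of the inner ear, had 8.14 and 8.21 in CD8 2 and 3 but was not well above background in γδ 2 and 3 (5.73 and 5.71), so CD8 was at least 5.33-fold higher (adjusted p = 1.6e-06). Ly6c1, a surface protein of memory and some naive CD8 cells, had 10.46 and 10.61 in CD8 2 and 3, against 8.16 and 8.12 in γδ 2 and 3 (2.39 ± 0.06). Its close relative Ly6c2 may share its sequence, so the probe can read both. With DN 1 and CD4 1 added, the adjusted p of Ly6c1 was 0.131.

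The rest of the 15 highest differences ran down to that of Cd5. They belonged to the transporter gene Slco3a1 (2.71), Glipr2 (2.68), Ramp1, a partner of the receptor for the neuropeptide CGRP (2.34), Nsg2 (2.29), Ms4a6d (2.26), Izumo1r, a folate receptor family member (2.25), Pxylp1 (2.18) and Rflnb, an actin regulator (2.15). A second probe of Ramp1 differed by 0.20. In all 15 genes CD8 2 and 3 lay above γδ 2 and 3, and in all 15 the library labelled CD8 1 lay below the library labelled γδ 1.

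Genes lower in CD8 cells, and so higher in γδ cells, reached larger differences. Fcer1g, the FcRγ adaptor that carries the signal of Fc and natural killer receptors, stood at 6.62 and 6.71 in CD8 2 and 3, against 12.59 and 12.53 in γδ 2 and 3, and 12.99 and 7.35 in libraries labelled CD8 1 and γδ 1. The difference in replicates 2 and 3 was -5.89 ± 0.04 (adjusted p = 1.29e-07). Gzma, a granzyme, had 9.11 and 9.24 in CD8 2 and 3, against 13.11 and 12.99 in γδ 2 and 3 (-3.87 ± 0.08, adjusted p = 1.6e-06). Ccr6, a chemokine receptor of the follicle dome and of type 17 T cells, had 6.29 and 6.30 in CD8 2 and 3, against 10.49 and 10.56 in γδ 2 and 3 (-4.23 ± 0.03, adjusted p = 1.29e-07).

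The 15 lowest differences held 3 genes of MHC class II presentation, H2-Aa (-5.57), H2-Eb1 (-5.37) and Cd74 (-5.19), given in full below. They also held genes known from B cells: Fcmr, the Fc receptor of IgM (-4.96), Blnk, an adaptor of the B cell receptor (-4.15), Tnfrsf13c, the receptor of the B cell survival factor BAFF (-4.04), Ms4a1, which encodes CD20 (-3.95), and Cd79b, a signalling chain of the B cell receptor (-3.75). The others were Scd1, a desaturase of fatty acids (-4.43), Cd200r2, a relative of the CD200 receptor (-4.04), Pxdc1 (-3.92) and Cited4, a transcriptional coactivator (-3.77). A second probe of Cited4 differed by -0.41. In all 15 genes the library labelled CD8 1 lay above the library labelled γδ 1.

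**Figure D2:**
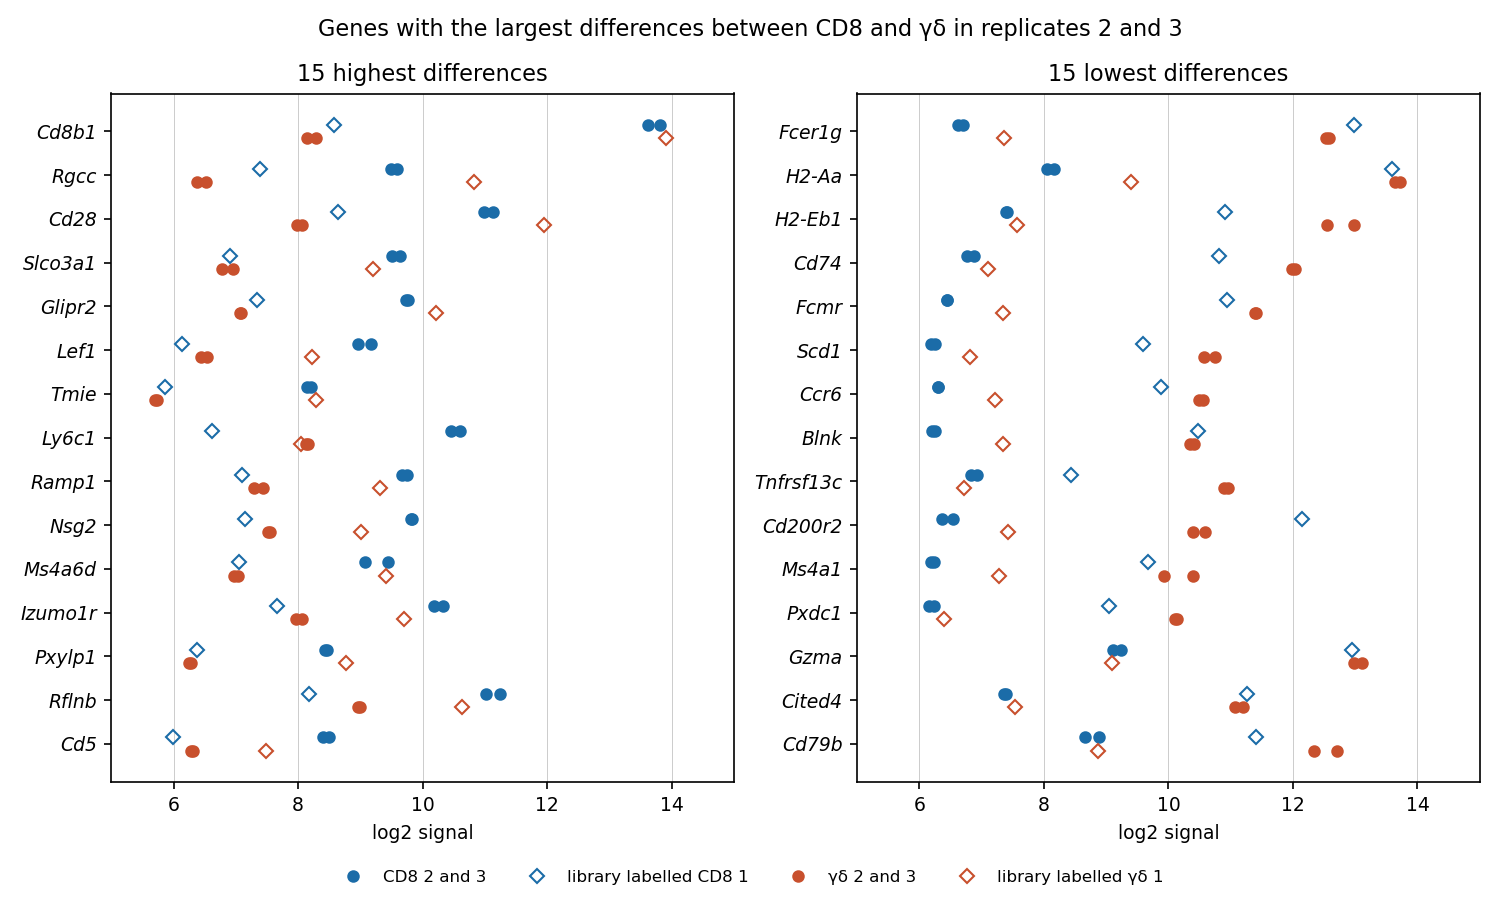
Log2 signal of the 15 genes with the highest and the 15 with the lowest difference between CD8 and γδ in replicates 2 and 3, with filled circles for CD8 2 and 3 (blue) and γδ 2 and 3 (orange) and open diamonds for the libraries labelled CD8 1 and γδ 1. The filled circles of the fractions do not overlap in any row, and the open diamonds stand in the opposite order, as for Fcer1g with 12.99 in CD8 1 and 7.35 in γδ 1.

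The replicate 1 difference was set beside that of replicates 2 and 3 for the 376 genes with a log2 difference of at least 1. In 374 of them the library labelled CD8 1 minus the library labelled γδ 1 had the opposite sign, and across these genes the correlation was -0.93, a description over genes that share 6 arrays. Among the 4583 genes called at any size, 3929 had the opposite sign (85.7%), and over all 16089 genes 10924 did (67.9%). The 2 genes with the same sign were Tbxa2r, the thromboxane receptor (1.10 in replicates 2 and 3, 0.33 in replicate 1), and Psg28, of the pregnancy-specific glycoproteins (-1.13 and -0.25). Neither was called with DN 1 and CD4 1 added (adjusted p = 0.0722 for Tbxa2r and 0.349 for Psg28). None of the 376 genes had all 3 CD8 values on 1 side of all 3 γδ values.

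The library labelled CD8 1 lay nearer the mean of γδ 2 and 3 than that of CD8 2 and 3 in 109 of the 116 genes higher in CD8 and in 206 of the 260 lower ones. The library labelled γδ 1 lay nearer the mean of CD8 2 and 3 in 76 of the 116 and in 231 of the 260. Over all genes tested, the library labelled CD8 1 correlated at 0.991 with DN 1 and at 0.968 with γδ 1, while γδ 2 correlated at 0.992 with DN 2. The library labelled γδ 1 correlated at 0.980 with CD4 1, while CD8 2 correlated at 0.978 with CD4 2. No library was moved to another group here, and the labels are kept throughout.

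**Figure D3:**
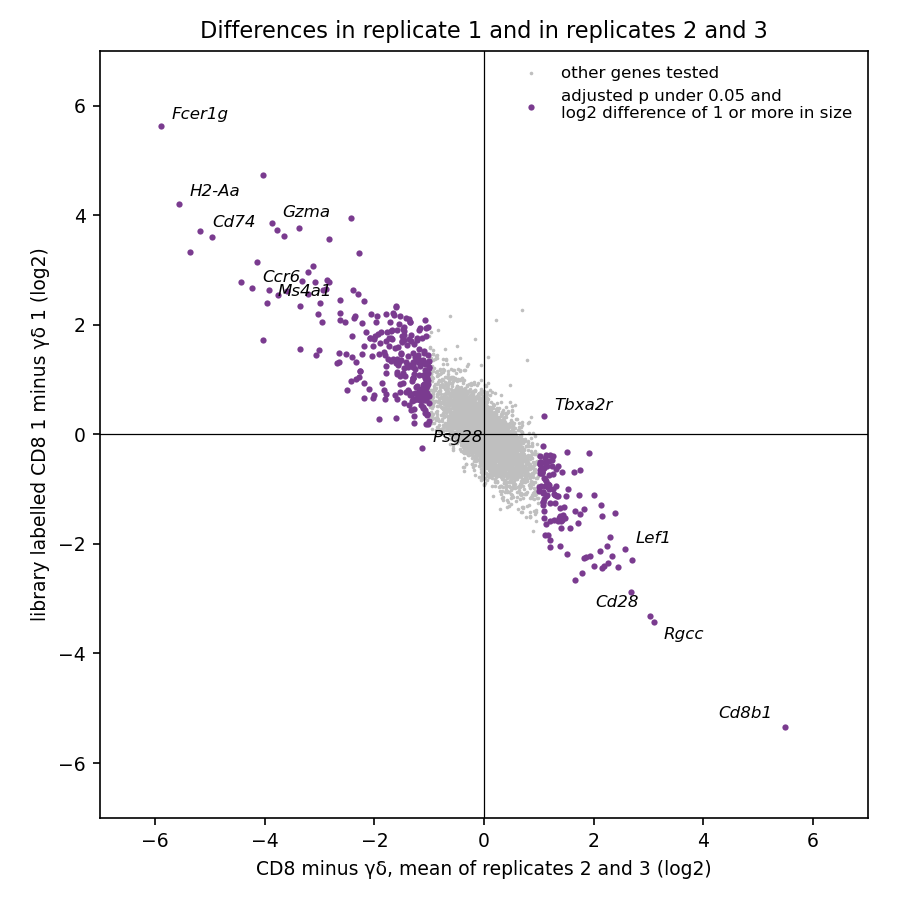
Log2 difference of each of 16089 genes in replicates 2 and 3 (mean of CD8 minus mean of γδ, horizontal) and in replicate 1 (library labelled CD8 1 minus library labelled γδ 1, vertical), with the 376 genes of adjusted p under 0.05 and a log2 difference of 1 or more in size in purple. The purple points run from upper left to lower right, and 374 of them have opposite signs on the axes.

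The DN fraction, sorted without CD8β but with TCRβ, showed where the γδ pattern was shared. For the 116 genes higher in CD8, the mean of DN 2 and 3 lay nearer γδ 2 and 3 in 113. For the 260 lower genes it lay nearer γδ in 247. In replicate 1 the library DN 1 lay nearer the library labelled CD8 1 in 109 and 241 of these genes. The CD4 fraction of replicates 2 and 3 lay nearer CD8 in 68 of the 116 and in 208 of the 260. These counts describe positions, with no test.

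Genes of naive and recirculating T cells were higher in CD8 almost throughout. Of 17 tested, 16 were higher and 0 lower in CD8 in replicates 2 and 3, with a median log2 difference of 1.21 beside 0.02 over all genes, where 15% were higher. Besides Lef1, Ly6c1 and Nsg2, Satb1, an organiser of chromatin in thymocytes and naive cells, had 10.68 and 10.77 in CD8 2 and 3, against 8.99 and 8.82 in γδ 2 and 3 (1.82 ± 0.10, adjusted p = 8.11e-05). Ccr7, the receptor that leads cells into lymph nodes, had 7.73 and 7.76 in CD8 2 and 3, against 6.12 and 6.07 in γδ 2 and 3 (1.65 ± 0.04). S1pr1, the receptor that leads them out again, differed by 1.21 ± 0.18, and Klf3, a Krüppel-like repressor, by 1.37 ± 0.07. Klf3 had an adjusted p of 0.0618 with DN 1 and CD4 1 added, where 9 of the 17 genes were higher. Foxp1, a factor of quiescence, was not called (-0.08), and in replicate 1 the median of the group was -0.68. In bulk samples a lower signal can come from fewer cells of a type or from less RNA per cell, and these cannot be told apart.

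The signalling parts of the T cell receptor split. Of 17 genes tested, 9 were higher and 2 lower in CD8, with a median of 0.20. Over all genes 15% were higher and 13.5% lower. After Cd28 and Cd5, the adhesion receptor Cd2 differed by 1.93 ± 0.12 (10.47 and 10.61 in CD8 2 and 3, against 8.57 and 8.65 in γδ 2 and 3), and Sh2d1a, the SAP adaptor of SLAM receptors, by 1.40 ± 0.24. Lat, the scaffold that the receptor kinases phosphorylate, had 8.39 and 8.36 in CD8 2 and 3, against 7.25 and 7.23 in γδ 2 and 3 (1.14 ± 0.03, adjusted p = 2.48e-06). On the other side Cd3g, the CD3γ chain of the receptor complex, had 10.32 and 10.40 in CD8 2 and 3, against 11.65 and 11.49 in γδ 2 and 3 (-1.21 ± 0.08, adjusted p = 0.000141). Trat1, a transmembrane adaptor of the receptor, had 9.55 and 9.34 in CD8 2 and 3, against 10.50 and 10.40 in γδ 2 and 3 (adjusted p = 0.000207). Cd3d (0.20), Cd3e (-0.13) and the kinase gene Zap70 (-0.43) were not called. The calls of Lat, Cd3g and Trat1 were lost with DN 1 and CD4 1 added (adjusted p = 0.397, 0.131 and 0.238), where 4 genes of the group were higher and 0 lower.

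Of 15 genes known from γδ T cells and from innate type 17 cells, 2 were higher and 6 lower in CD8, with a median of -0.06, beside 15% higher and 13.5% lower over all genes. After Ccr6, the lower ones were Blk, a Src family kinase of B cells and of γδ T cells that make interleukin 17 (-2.65 ± 0.05), Cd163l1 (-2.38 ± 0.04), Tmem176b (-2.33 ± 0.04), Tmem176a (-2.26 ± 0.05) and the nuclear receptor Rora (-0.67 ± 0.05), whose second probe differed by -0.17 and whose adjusted p was 0.133 with DN 1 and CD4 1 added. Cd163l1, which encodes a scavenger receptor known from γδ cells, had 6.12 and 6.18 in CD8 2 and 3, against 8.57 and 8.48 in γδ 2 and 3. The library labelled CD8 1 had 8.23 and that labelled γδ 1 had 6.11. The mean of DN 2 and 3 was 6.04 for Cd163l1, 6.73 for Tmem176b and 6.59 for Tmem176a, all nearer CD8 than γδ, in contrast to most genes lower in CD8. The DN values of Ccr6, Blk and Rora are not given here, so these genes do not stand for the group. The mean signal over all 15 genes was 6.88 in both DN 2 and DN 3. It was 6.49 and 6.51 in CD8 2 and 3, against 7.35 and 7.33 in γδ 2 and 3, so DN stood between these fractions. Il7r, the interleukin 7 receptor, was higher in CD8 (1.45 ± 0.05). The γδ transcription factor gene Sox13 (0.02) and the cytokine genes Il17a (0.15) and Il17f (0.11) were not called.

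Receptors and adaptors of natural killer cells were lower in CD8. Of 22 tested, 0 were higher and 14 lower, with a median of -0.50, where 13.5% of all genes were lower. Tyrobp, the DAP12 adaptor, had 6.25 and 6.22 in CD8 2 and 3, against 9.34 and 9.57 in γδ 2 and 3 (-3.22 ± 0.08, adjusted p = 2.9e-06). Cd244a, the 2B4 receptor, differed by -3.12 ± 0.25, Klra5 of the Ly49 family by -2.43 ± 0.04 and Klre1 by -2.27 ± 0.06. Klrd1, the CD94 subunit, was bright in both fractions, with 11.42 and 11.53 in CD8 2 and 3, against 13.28 and 13.25 in γδ 2 and 3 (-1.79 ± 0.04). The natural cytotoxicity receptor gene Ncr1 (-0.02), Klrc2 (-0.04) and Klra3 (-0.02) were not called and were dim in both. Since Ly49 genes are near-identical in sequence, their probes may cross-react.

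Granzymes and chemokines of cytotoxic cells followed the same order. Of 22 genes tested, 17 were lower and 2 higher in CD8, with a median of -0.93. Over all genes 13.5% were lower and 15% higher. Gzmb, a granzyme that activates caspases, had 11.12 and 11.20 in CD8 2 and 3, against 14.02 and 14.48 in γδ 2 and 3 (-3.09 ± 0.14, adjusted p = 4.27e-05). The chemokine gene Xcl1, whose product attracts cross-presenting dendritic cells, differed by -2.83 ± 0.04, Ccl5 by -2.63 ± 0.06 and Ccl4 by -2.51 ± 0.04. Ccl5 had 15.57 in both γδ 2 and γδ 3, near the top of the scale, which can narrow its difference. The genes higher in CD8 were the transcription factors Tbx21 (0.51 ± 0.05) and Eomes (0.40 ± 0.03), which drive the effector and memory programmes of CD8 cells. Tbx21 was not called with DN 1 and CD4 1 added (adjusted p = 0.517), where 10 genes of the group were lower and 1 higher. The perforin gene Prf1 was dim in both fractions and not called (-0.02). Ifng, the interferon γ gene, differed by -1.15 ± 0.08, with 10.01 and 9.29 in libraries labelled CD8 1 and γδ 1, above all values of 7.24 to 8.51 in replicates 2 and 3, and its adjusted p was 0.237 with these arrays added.

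**Figure D4:**
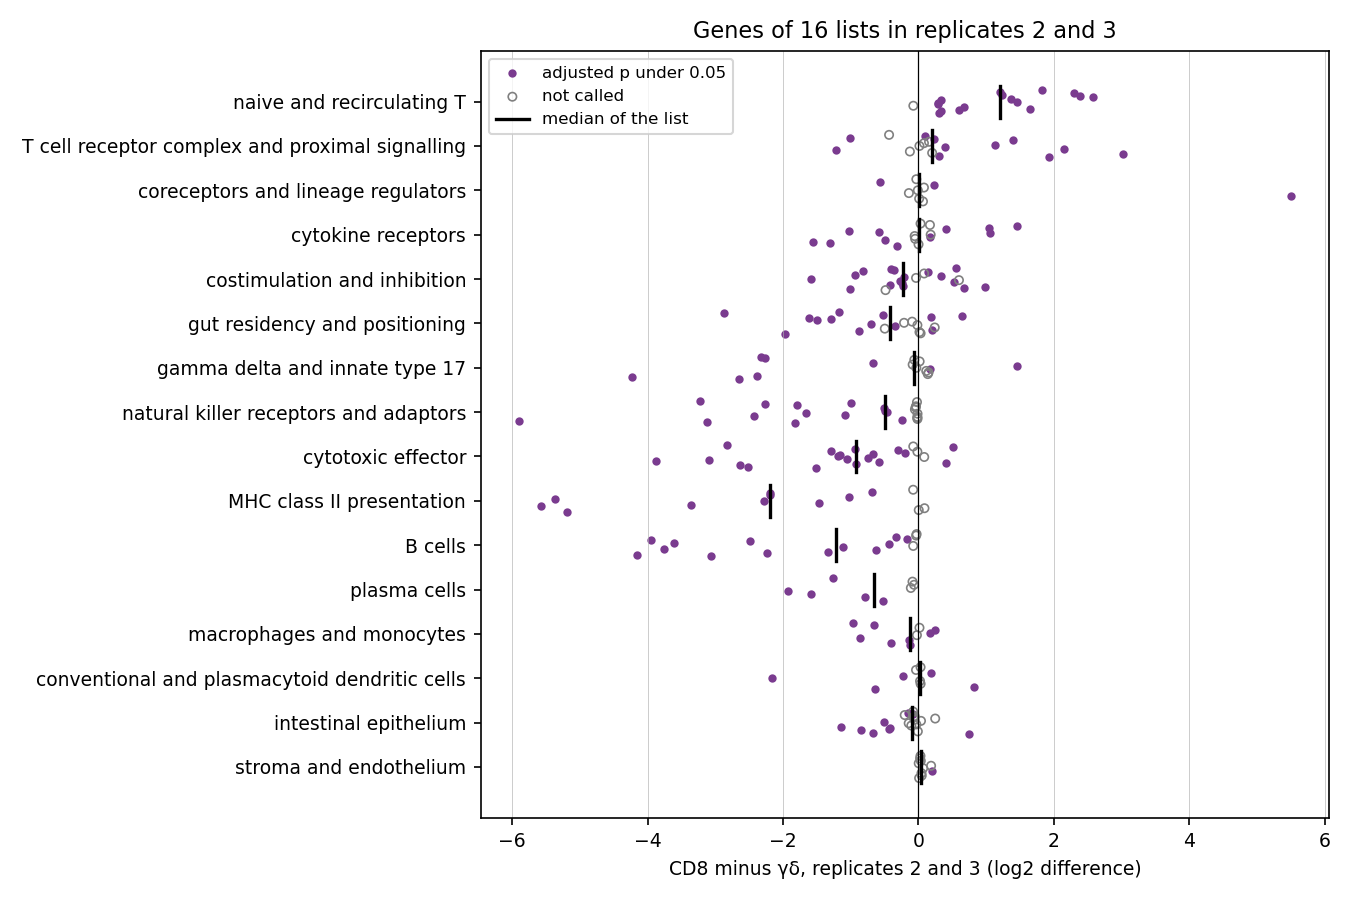
Log2 difference between CD8 and γδ in replicates 2 and 3 for each tested gene of 16 groups, with purple points for adjusted p under 0.05, open points for genes not called and a black bar at the median of the group. The naive and recirculating group lies to the right of 0 (median 1.21), and the MHC class II, B cell and cytotoxic groups to the left (medians -2.19, -1.22 and -0.93).

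Of 20 genes of gut residency, 10 were lower and 3 higher in CD8, with a median of -0.42, beside 13.5% lower and 15% higher over all genes. With median scaling 10 were lower and 1 higher, and with DN 1 and CD4 1 added 6 were lower and 0 higher. Ahr, the aryl hydrocarbon receptor that intestinal T cells need to persist, had 6.43 and 6.35 in CD8 2 and 3, against 8.47 and 8.26 in γδ 2 and 3 (-1.97 ± 0.08, adjusted p = 1.96e-05). Itgae, the αE integrin of cells within the epithelium, differed by -1.61 ± 0.07, with -0.56 on its second probe, and Hic1, a transcriptional repressor of intestinal T cells, by -1.50 ± 0.08. Rgs1, a brake on chemokine receptors, differed by -2.87 ± 0.05. It had 14.61 and 11.79 in libraries labelled CD8 1 and γδ 1, against 8.75 and 8.84 in CD8 2 and 3 and 11.64 and 11.69 in γδ 2 and 3, and its adjusted p was 0.155 with DN 1 and CD4 1 added. Itgb7, the β7 integrin of gut homing, was higher in CD8 (0.65 ± 0.10), but not called with median scaling (adjusted p = 0.0583) or with DN 1 and CD4 1 added (0.775). Cd69 (0.02) and the gut chemokine receptor gene Ccr9 (0.03) were not called.

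Receptors for cytokines and costimulatory signals went both ways. Over all genes 15% were higher and 13.5% lower in CD8. Of 17 cytokine receptor genes, 5 were higher and 6 lower, with a median of 0.00. Il12rb1, a subunit of the receptors of interleukins 12 and 23, differed by -1.56 ± 0.22, Il10ra by -1.31 ± 0.05 and Il2rb, which binds interleukins 2 and 15, by -1.03 ± 0.06 (adjusted p = 0.24 with DN 1 and CD4 1 added). Il27ra (1.05 ± 0.04) and Il6st, the gp130 chain shared by receptors of the interleukin 6 family (1.04 ± 0.06), were higher in CD8. Of 21 costimulatory and inhibitory genes, 6 were higher and 11 lower, with a median of -0.23. Lgals3, a galectin, differed by -1.59 ± 0.04 and Cd200 by -1.01 ± 0.05, while Cd27, a TNF family receptor of naive and memory cells, was higher in CD8 (0.99 ± 0.15). With DN 1 and CD4 1 added, 3 cytokine receptor genes were higher and 4 lower, and 1 costimulatory or inhibitory gene was higher and 6 lower. Over all genes 3.75% were higher and 3.83% lower in that fit.

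MHC class II genes had the lowest median of the 24 groups, except on the authors' value table, where B cell genes did (-3.00, with -2.58 for class II). Class II molecules present peptides to CD4 T cells and are known from B cells, dendritic cells and macrophages, and the title of the series concerns antigen presentation by T cells. Of 13 genes tested, 10 were lower and 0 higher in CD8, with a median of -2.19. Over all genes 13.5% were lower and 15% higher. H2-Aa, the α chain of the class II molecule I-A, had 8.06 and 8.16 in CD8 2 and 3, against 13.63 and 13.72 in γδ 2 and 3, and 13.60 and 9.40 in libraries labelled CD8 1 and γδ 1 (-5.57 ± 0.09 in replicates 2 and 3, adjusted p = 6.94e-07). H2-Eb1, a β chain, had 7.39 and 7.41 in CD8 2 and 3, against 12.55 and 12.97 in γδ 2 and 3, and 10.90 and 7.57 in libraries labelled CD8 1 and γδ 1 (-5.37 ± 0.15). Both genes were high in γδ 2 and 3 and in the library labelled CD8 1.

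The invariant chain gene Cd74, whose product fills the peptide groove until loading, differed by -5.19 ± 0.06, and H2-Ab1, the β chain of I-A, by -3.35 ± 0.04. The loading factors followed, with H2-DMb1 at -2.28 ± 0.05, Ifi30, a thiol reductase of endosomes, at -2.20 ± 0.06, H2-Ob at -2.19 ± 0.13, H2-DMa at -1.46 ± 0.05, H2-Oa at -1.02 ± 0.08 and the protease gene Lgmn at -0.68 ± 0.04. Ciita, the transactivator of class II genes, had 7.41 and 7.52 in CD8 2 and 3, against 7.47 and 7.44 in γδ 2 and 3, and was not called (0.00 ± 0.05, adjusted p = 0.958). Ifi30 and H2-Oa were not called with DN 1 and CD4 1 added (adjusted p = 0.052 and 0.52). The protease gene Ctss (0.09) and Rfx5, a factor that binds class II promoters (-0.08), were not called either.

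Since class II genes moved together, their promoters were read from RefSeq on build GRCm38.p6, from 250 bases before the annotated start to 50 after it. Of the 13 genes, 10 had an entry. These promoters are known for a Y box, the inverted CCAAT that the factor NF-Y binds, searched here as GATTGG on the gene strand and set in capitals in 3 of them.
H2-Aa, chr17:34287774-34288073, minus strand: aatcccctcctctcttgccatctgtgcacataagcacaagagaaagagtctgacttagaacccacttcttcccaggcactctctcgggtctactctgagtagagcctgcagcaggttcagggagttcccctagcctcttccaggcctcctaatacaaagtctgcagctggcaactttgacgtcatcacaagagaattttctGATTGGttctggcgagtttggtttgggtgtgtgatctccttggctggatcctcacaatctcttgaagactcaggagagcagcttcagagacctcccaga
H2-Eb1, chr17:34305617-34305916, plus strand: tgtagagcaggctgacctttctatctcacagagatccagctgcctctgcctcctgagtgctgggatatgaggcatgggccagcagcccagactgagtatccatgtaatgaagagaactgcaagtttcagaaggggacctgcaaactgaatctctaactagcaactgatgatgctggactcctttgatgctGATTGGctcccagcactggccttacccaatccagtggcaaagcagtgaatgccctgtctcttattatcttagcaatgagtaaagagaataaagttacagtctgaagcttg
H2-DMb1, chr17:34152941-34153240, plus strand: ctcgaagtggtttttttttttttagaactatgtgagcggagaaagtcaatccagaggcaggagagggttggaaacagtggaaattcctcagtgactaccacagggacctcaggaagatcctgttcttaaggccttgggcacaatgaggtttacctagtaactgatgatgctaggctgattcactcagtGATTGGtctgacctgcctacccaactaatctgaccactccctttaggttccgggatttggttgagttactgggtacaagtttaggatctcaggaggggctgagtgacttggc

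The letters GATTGG began 49 bases before the start of H2-Aa, 60 before that of H2-Eb1, 62 before that of H2-DMb1, 58 before that of H2-Ob and 44 before that of H2-Oa. A second annotated start of H2-DMa had it 199 bases before. On the gene strand it was thus found in 6 of the 10 genes, counting a gene where any of its annotated starts had it. Of 32851 promoter windows of the same length 8.71% held it, which is a share of single windows and not of genes. On either strand 16.1% of windows held it or its complement CCAATC. The 4 genes without it on the gene strand were Ctss, Lgmn, Ifi30 and Rfx5. A match is a description of the letters and not evidence of a bound site.

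B cell genes moved with the class II genes. Of 16 tested, 13 were lower and 0 higher in CD8, with a median of -1.22, where 13.5% of all genes were lower and 15% higher. The stated purity was above 98%, and the sort names no B cell marker. Ms4a1 had 6.19 and 6.23 in CD8 2 and 3, against 9.93 and 10.39 in γδ 2 and 3 (-3.95 ± 0.20, adjusted p = 5.32e-05). Cd79b had 8.67 and 8.88 in CD8 2 and 3, against 12.35 and 12.71 in γδ 2 and 3. Fcrla, an Fc receptor-like protein of B cells, differed by -3.60 ± 0.05, and Cd79a, the partner of Cd79b, by only -0.63 ± 0.04, with dim signals of 6.12 and 6.14 in CD8 2 and 3, against 6.79 and 6.73 in γδ 2 and 3. The call of Cd79a was lost with DN 1 and CD4 1 added (adjusted p = 0.416), where 9 of the 16 genes were lower.

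The mean log2 signal of the B cell genes was 6.30 and 6.32 in CD8 2 and 3, against 7.98 and 8.06 in γδ 2 and 3. In the libraries labelled CD8 1 and γδ 1 it was 7.54 and 6.53. That of the class II genes was 7.12 and 7.11 in CD8 2 and 3, against 9.35 and 9.39 in γδ 2 and 3, and 8.20 and 6.93 in libraries labelled CD8 1 and γδ 1. The part of B cells in the class II values was not tested. Plasma cell genes were lower in CD8 in 5 of 8 and higher in 0, with a median of -0.65, where 13.5% of all genes were lower. The 5 were Mzb1 (-1.92 ± 0.19), Irf4 (-1.58 ± 0.06), Xbp1 (-1.26 ± 0.07), Derl3 (-0.79) and Creld2 (-0.52). The other 3 genes tested were not called. Sdc1, Jchain, Tnfrsf17 and Prg2 were not among the called genes, but not all of these were tested. Xbp1 and Creld2 were not called with DN 1 and CD4 1 added (adjusted p = 0.106 and 0.0874).

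**Figure D5:**
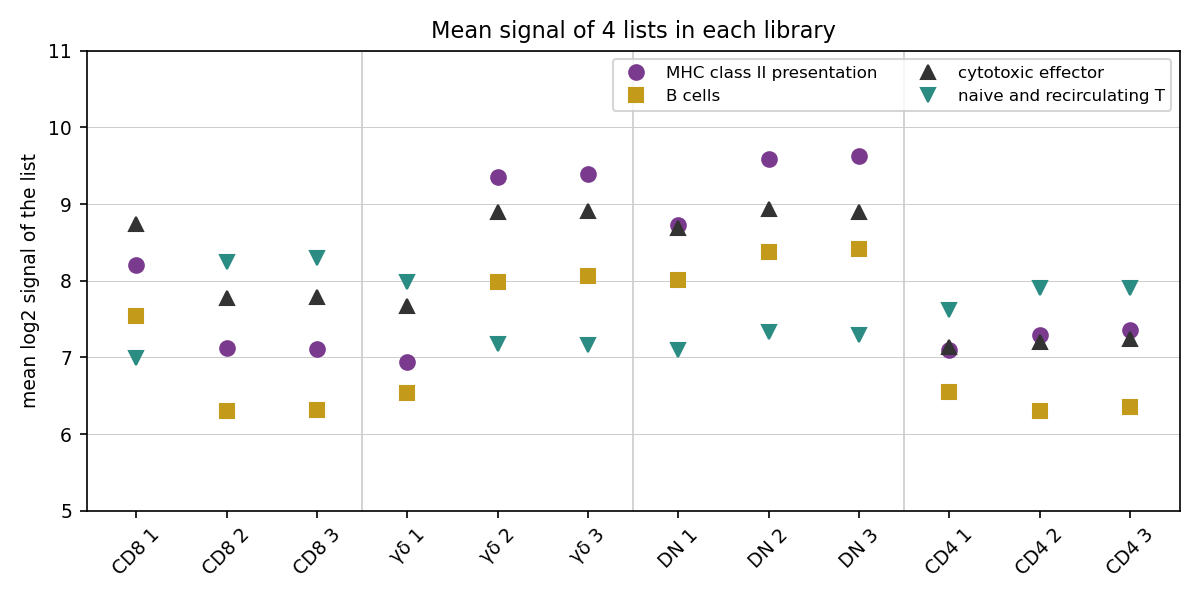
Mean log2 signal over the tested genes of 4 groups (MHC class II, B cells, cytotoxic effector, naive and recirculating T cells) in each of the 12 libraries. The class II, B cell and cytotoxic means are high in γδ 2 and 3 and in the library labelled CD8 1 (class II 9.35, 9.39 and 8.20) and low in CD8 2 and 3 and in the library labelled γδ 1 (7.12, 7.11 and 6.93), and the naive mean stands the other way.

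By their group medians, markers of other cell types moved less, but some members differed more under other settings. Of 9 dendritic cell genes, 2 were higher and 3 lower in CD8, with a median of 0.02. With DN 1 and CD4 1 added 0 were higher and 2 lower, and Bst2 and Siglech were not called (adjusted p = 0.214 and 0.195). Batf3 differed by -0.65, with -2.19 to -0.58 over the 19 alternatives. The CD11c integrin gene Itgax, which activated and intestinal T cells also carry, was the lowest (-2.16 ± 0.03), and Xcr1 and Clec9a of cross-presenting dendritic cells were detected on 0 of the 6 arrays. Of 10 macrophage and monocyte genes, 2 were higher and 6 lower, with a median of -0.13, beside 15% higher and 13.5% lower over all genes. With median scaling 0 were higher and 5 lower, on the authors' value table the counts were 0 and 4 with a median of -0.77, and with DN 1 and CD4 1 added 1 and 2. Lyz2, a lysozyme, differed by -0.97 ± 0.07 (adjusted p = 0.37 in that last fit), and Cd14 was not called (-0.02). Ccr2 differed by -0.87, with -4.11 to -0.74 over the 19 alternative settings. C1qb differed by -0.40, with -1.98 to -0.36 over the same settings.

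Of 20 genes of intestinal epithelium, 1 was higher and 8 lower in CD8, with a median of -0.10. Over all genes 15% were higher and 13.5% lower. Fabp2, a fatty acid binding protein of enterocytes, differed by -1.14 ± 0.04. Epcam, the epithelial adhesion molecule, was dim, with 5.92 and 5.92 in CD8 2 and 3, against 6.40 and 6.29 in γδ 2 and 3. Epcam was not called with DN 1 and CD4 1 added (adjusted p = 0.354), where 0 epithelial genes were higher and 2 lower. The highest Epcam value of these 6 libraries was 7.21 in the library labelled CD8 1. Of 10 genes of stroma and endothelium 1 was higher and 0 lower, and of 7 of granulocytes and mast cells 1 was higher and 1 lower. The lower one, Kit, differed by -0.67, with -4.21 to -0.59 over the 19 alternatives. The higher one, S100a8, differed by 0.16, with 0.12 to 0.37. Of 7 Fc receptor genes, 1 was higher, Fcgrt, the neonatal Fc receptor (0.56 ± 0.07), and 4 lower, Fcer1g first. Over the 19 alternatives Fcgrt ran from 0.49 to 1.28. Fcgr2b, among the lower ones, differed by -0.37, with -3.51 to -0.33.

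Among general programmes, 7 of 14 interferon response genes were higher and 1 lower in CD8, with a median of 0.17, led by Bst2 (0.82 ± 0.04) and Isg15 (0.60 ± 0.07), beside 15% higher and 13.5% lower over all genes. With DN 1 and CD4 1 added 3 were higher and 0 lower, and Bst2 was not called (adjusted p = 0.214). Of 14 ribosomal protein genes, 7 were higher and 0 lower, with a median of 0.21. With median scaling 10 were higher (median 0.58), on the authors' value table it was 12 (median 0.70), and with DN 1 and CD4 1 added 1. Rpsa differed by 1.28 ± 0.09 and Rpl3 by 0.84 ± 0.08, and neither was called with DN 1 and CD4 1 added (adjusted p = 0.0544 and 0.799). Rpl3 stood at 6.92 and 7.50 in libraries labelled CD8 1 and γδ 1, against 10.41 and 10.38 in CD8 2 and 3 and 9.44 and 9.67 in γδ 2 and 3, so both libraries of replicate 1 lay below all 4 others. Of 16 cell cycle genes, 1 was higher and 7 lower, with a median of -0.12, and of 20 respiratory chain genes 2 were higher and 6 lower, with a median of -0.17. Cell cycle genes gave 0 higher and 1 lower with DN 1 and CD4 1 added. Of the respiratory chain genes, 0 were lower with these arrays added, with median scaling or on the authors' value table.

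Of 16 early response genes, 4 were higher and 6 lower in CD8, with a median of -0.10. With DN 1 and CD4 1 added 3 were higher and 2 lower. In replicates 2 and 3 alone, 15% of all genes were higher and 13.5% lower. Nr4a1, a nuclear receptor induced by T cell receptor signals, had 6.70 and 6.66 in CD8 2 and 3 and 7.21 and 7.33 in γδ 2 and 3, but 8.81 and 8.84 in libraries labelled CD8 1 and γδ 1. Dusp1, a phosphatase induced by stress, had 7.11 and 7.13 in CD8 2 and 3 and 7.36 and 7.25 in γδ 2 and 3, but 9.69 and 9.24 in those libraries. Of 13 genes of helper, follicular helper and regulatory T cells, 2 were higher in CD8, Izumo1r and Gpr83 (0.39 ± 0.08, adjusted p = 0.108 with median scaling and 0.057 to 0.0772 when 1 library of CD8 or γδ was left out), and 5 were lower, among them Cxcr5, the receptor of B cell follicles (-2.33 ± 0.07). The 2 higher genes of these 13 lay near the share over all genes. The transcription factor gene Foxp3 of regulatory T cells was not called (0.13).

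The remaining coreceptor and lineage genes changed little. Tox, a factor of CD4 lineage choice, differed by -0.57 ± 0.10 and Themis, of thymocyte selection, by 0.22. With DN 1 and CD4 1 added their adjusted p was 0.108 and 0.0845, and Themis was not called without CD8 2, γδ 2 or γδ 3 either (0.0558 to 0.0629). Runx3, which silences Cd4 in CD8 cells (0.08), Runx1 (-0.01), Zbtb7b, which encodes the ThPOK factor of CD4 cells (-0.03), and Gata3 (-0.14) were not called, though Gata3 was with the replicate number as a block (adjusted p = 0.0338).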

How the data were processed

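RNA of sorted T cells was measured on 12 Toray 3D-Gene mouse arrays, and the CD8 and γδ arrays are compared here. Per the file headers, the deposited scanner files give spot intensity as medians at 635 nm, without background correction or normalisation. The authors' value table of the series also holds intensity, linear in the spot signal and scaled to a median of 25 within each array, as found from its values. A probe counts as detected where this table lists it.

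The spot medians went through normexp background correction with an offset of 50, then log2, averaging over the spots of a probe and quantile normalisation. Symbols came from the platform annotation: 20690 probes had 1, 0 had several and 2783 had none. 25 probes with a scanner flag were left out. The genes tested were those with a probe detected on each of the 3 CD8 arrays or each of the 3 γδ arrays, and the brightest such probe stood for its symbol. limma 3.58.1 in R 4.3.3 (lmFit, eBayes, two-sided) fitted the means of the 4 fractions on 12 arrays as labelled and on the 8 arrays of replicates 2 and 3, with Benjamini-Hochberg adjustment over all 16089 genes, called at adjusted p under 0.05. The scripts were tested on simulated data. Figures used Python 3.11.15 and matplotlib 3.10.9.

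The named genes are the coreceptor group, the 15 highest and 15 lowest differences of replicates 2 and 3 among genes called, not overlapping and detected on both arrays of the higher fraction (clone names left out), up to 4 called members of each of 24 gene groups, members not called, and genes of like sign in replicate 1. Further called members of the groups, and members not detected, were named after their values were seen. The members, groups and rule were chosen with earlier results of these data known. Folds written as a minimum concern genes with 0 detections in the lower fraction of replicates 2 and 3, whose signal was raised to the lowest detected signal of its array.

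With fraction means subtracted, arrays of different fractions with the same replicate number correlated above 0.1 in 18 of 18 pairs (0.101 to 0.737). The means were taken over both array series, so these correlations cannot tell a shared replicate from a shared series. The main fits did not pair arrays by number. Replicate number entered as a block only in an alternative fit. Within the array series of replicates 2 and 3, pairs of different number correlated at 0.0759 to 0.626 and pairs of the same number at 0.101 to 0.673.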

Additional observations from a re-analysis of the deposited data

Results flagged for a closer look

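The difference between CD8 and γδ ran one way in replicates 2 and 3 and the other way in replicate 1 for 374 of the 376 genes called in replicates 2 and 3 with a log2 difference of 1 or more in size. Each group of arrays moved as one: both pairs of replicates 2 and 3 had the sign given, and the pair of replicate 1 the opposite. This difference between the replicates was not tested, since replicate 1 holds 1 library of each fraction. Cd8b1 was -5.33 in replicate 1 (the library labelled CD8 1 minus the library labelled γδ 1), against 5.50 in replicates 2 and 3, likewise not tested. Replicate 1 is also the only replicate in its array series, so the replicate and the series cannot be told apart. In DN and CD4, whose replicate 1 lies in the same array series, Cd8b1 moved little: 6.29 in DN 1 against 6.26 and 6.28 in DN 2 and 3, and 8.26 in CD4 1 against 7.93 and 7.80 in CD4 2 and 3.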

How the results depend on the processing

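As labelled, 0 genes were called under every alternative with all 12 arrays or with the 6 arrays of CD8 and γδ, and leaving out 1 library gave 0 to 16 (16 without CD8 1, 8 without γδ 1). Blocking on replicate number, 0 genes were called as labelled (930 at an unadjusted p under 0.05), and 4501 in replicates 2 and 3. Among the members of the gene groups and the named genes, the replicate block lost 2 calls and added 9, among them Gata3 (adjusted p = 0.0338), and interferon response genes were then lower in 2 rather than 1. In replicates 2 and 3 the number of genes called was 2766 on the value table, which shifted the median of all genes to 0.10, and 1221 with DN 1 and CD4 1 added to the fit (3322 with the array series as a block as well). It was 3182 to 4624 when 1 library was left out. The number with a log2 difference of at least 1 was 613 with an offset of 16, 1378 on the value table and 371 to 388 when 1 library was left out. The offset of 16 and the value table both treat dim genes otherwise than the main values do. Without background correction the number was 350. Which part of a setting moved the number was not tested. The opposite sign in replicate 1 held for 374 of the 376 genes also without background correction, with median scaling and on the value table. Of the 4583 genes called at any size it held for 3929, for 3489 with median scaling and for 3908 on the value table. Of 104 named genes called in replicates 2 and 3, 73 kept the call under all 19 alternatives and 31 lost it in at least 1. The respiratory chain gene Cox6a1 reversed, with -0.33 as reported and 0.0371 on the value table, where its adjusted p was 0.887. Respiratory chain genes were lower in 6 of 20 but in 0 with median scaling or on the value table. Of the genes given as not called, Foxp3 was called with an offset of 16 (adjusted p = 0.0442), on the 4 arrays of CD8 and γδ (0.0492) and without CD4 2 or 3 (0.0197), Gata3 with median scaling (0.0448) and without CD4 2 or 3 (0.0296), Cd3e without CD4 2 or 3 (0.0391), and Il17a and Rfx5 without CD8 2 (0.00971 and 0.0482). The cause of these changes was not tested. Signal over background limits dim genes, whose differences the offset narrows.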
